A study of Mus musculus with 48 samples.

Results

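The CD28 family of T cell receptors was followed as 5 genes, Cd28, Ctla4, Icos, Pdcd1 and Btla, each present in both count tables, the one for thymic iNKT cells (52636 genes) and the one for donor T cells (35661 genes). Added to them were the 25 open chromatin regions, of 54524 in all, that lay within 10 kb of a member's gene body. The genes were chosen by name as a list, when earlier results of these data, the levels and fold changes in these tables among them, were known. Which of those values weighed in the choice is not recorded. Every fold change and adjusted p-value for a member therefore describes its place in a fit of all genes and is not independent support for having chosen it.

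Each group came from FVB/N mice. Invariant natural killer T (iNKT) cells, a lineage with a nearly fixed T cell receptor that recognises lipid on CD1d, were sorted from the thymus into the iNKT17, iNKT2 and iNKT1 sublineages, with 2 RNA libraries and 2 ATAC-seq libraries (sequencing of DNA that a transposase can reach) of each. Unsorted thymic iNKT cells of 2 mice aged 8 weeks gave 2 single-cell libraries. Donor conventional CD8 and CD4 T cells, from spleen and peripheral lymph nodes, were profiled in a graft-versus-host disease model in which FVB/N cells enter Balb/C hosts across a major mismatch. These cells were recovered on day 7 from hosts that had been given iNKT1, iNKT2 or iNKT17 cells, on day 7 from hosts given none (untreated), and on day 0 before transfer, with 3 libraries in each of the 10 groups. Every day 7 group, the untreated one included, had therefore been transplanted. iNKT1 libraries sorted further on CD4 were not analysed here. The sources do not say that the libraries of a bulk group came from separate animals, so a p-value here sets a difference against library-to-library spread that may be technical only. The titles name 2 experiments, with 2 libraries of one and 1 of the other in each donor group, but the columns do not carry that name.

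The members are receptors of the immunoglobulin superfamily that adjust what a T cell does when it meets antigen. Cd28 binds Cd80 and Cd86 on antigen-presenting cells and delivers the costimulatory signal that sustains proliferation and survival. Ctla4 binds the same ligands more tightly, is kept mostly in vesicles inside the cell, is induced by activation and is abundant in regulatory T cells, where it restrains responses. Icos is induced by activation, binds Icosl and helps follicular helper T cells. Pdcd1 encodes PD-1, which binds the products of Cd274 and Pdcd1lg2, and Btla binds the Tnfrsf14 product. Both of these last receptors are inhibitory and recruit tyrosine phosphatases through their tails.

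In the RefSeq annotation of GRCm38.p6, Cd28 (ENSMUSG00000026012, chr1:60746388-60773359), Ctla4 (ENSMUSG00000026011, chr1:60909025-60915832) and Icos (ENSMUSG00000026009, chr1:60960773-61000322) lie in that order on chromosome 1, with 135665 bases between Cd28 and Ctla4 and 44940 bases between Ctla4 and Icos. Pdcd1 (ENSMUSG00000026285, chr1:94038305-94052553) lies far from them on the same chromosome and on the opposite strand, and Btla (ENSMUSG00000052013, chr16:45223705-45252895) is on chromosome 16. Promoter sequences were at hand for 3 of the 5 members. The 250 bases upstream of the RefSeq start are shown for them because accessibility at or near these starts is one of the results. They lie at chr1:60908775-60909024 on the plus strand for Ctla4, chr1:94052554-94052803 on the minus strand for Pdcd1 and chr16:45224087-45224336 on the plus strand for Btla, whose start in this table lies inside its annotated span. Of these 250 bases, 230 for Ctla4, 250 for Pdcd1 and 118 for Btla lie in a deposited ATAC region. Capitals mark the NFAT core GGAAA, here read on the reverse strand as TTTCC. NFAT is the calcium-activated factor that works downstream of the T cell receptor.
Ctla4: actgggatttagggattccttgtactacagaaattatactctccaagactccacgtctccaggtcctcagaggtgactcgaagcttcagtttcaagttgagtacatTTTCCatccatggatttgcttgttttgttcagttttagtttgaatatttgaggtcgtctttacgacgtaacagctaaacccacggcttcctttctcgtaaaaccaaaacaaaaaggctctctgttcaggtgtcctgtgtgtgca
Pdcd1: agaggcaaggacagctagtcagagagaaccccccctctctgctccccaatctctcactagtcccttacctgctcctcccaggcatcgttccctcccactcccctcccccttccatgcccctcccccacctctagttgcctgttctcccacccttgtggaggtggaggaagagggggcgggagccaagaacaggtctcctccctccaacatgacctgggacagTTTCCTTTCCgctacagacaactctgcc
Btla: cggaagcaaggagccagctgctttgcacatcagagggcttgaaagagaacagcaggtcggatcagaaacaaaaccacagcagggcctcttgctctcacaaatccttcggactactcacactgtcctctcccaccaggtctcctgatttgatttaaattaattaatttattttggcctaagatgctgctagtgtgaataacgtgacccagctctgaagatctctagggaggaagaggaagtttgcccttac
On either strand, Pdcd1 held 2 matches to GGAAA, Ctla4 held 1 and Btla held 0, and 55.6% of 32851 mouse promoters of this length held at least 1. The AP-1 motif TGANTCA matched none of the 3 (6.75% of promoters held it). The Ets core GGAAG matched 2 times in Pdcd1, 1 time in Ctla4 and 3 times in Btla (64.1% of promoters), the E-box CANNTG 1 time each in Ctla4 and Btla (66.2%), the GC box GGGCGG 1 time in Pdcd1 (32.7%) and TATAAA in none of the 3 (12.4%). The matches to GGAAA overlapped no match to another motif. A match of this kind is only a run of letters and not a measured binding site.

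Library totals were 26811373 to 33688697 counts for thymic iNKT RNA, 25323879 to 37055182 for donor T cell RNA and 13299586 to 42964216 for ATAC. Values below are CPM (counts scaled to a common library size) after TMM scaling, and they are compared between groups and never between genes, because transcript lengths were not used. The marker genes given here matched the labels. Tbx21, the master regulator of iNKT1 cells, had 0.0965 to 0.233 CPM in iNKT17, 0.305 to 19.7 CPM in iNKT2 and 305 to 307 CPM in iNKT1. Cd8b1 had at least 963 CPM in every donor CD8 library and at most 20.05 CPM in every CD4 library. Foxp3 was at 0 counts in all 6 thymic iNKT RNA libraries.

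In thymic iNKT cells, Icos was the member called against iNKT1. It had 1362 and 1431 CPM in iNKT17, 1419 and 1020 CPM in iNKT2, and 113 and 95.4 CPM in iNKT1. All 4 libraries of iNKT17 and iNKT2 lay above both iNKT1 libraries, and those of iNKT17 and iNKT2 overlapped. The log2 fold change was 3.75 ± 0.25 (SE) for iNKT17 over iNKT1 (edgeR quasi-likelihood test, Benjamini-Hochberg adjusted p = 5.28e-05) and 3.55 ± 0.24 for iNKT2 over iNKT1 (adjusted p = 1.30e-04). No other member was called in either comparison, at an adjusted p under 0.05, where 2.00% and 1.29% of the 12372 genes tested were called. Between iNKT17 and iNKT2 its log2 fold change was 0.20 ± 0.22 (adjusted p = 0.923).

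Pdcd1 had 668 and 674 CPM in iNKT17, 91.4 and 157 CPM in iNKT2, and 1.21 and 19.8 CPM in iNKT1. The 3 pairs of libraries did not overlap, in the order iNKT17, iNKT2, iNKT1. The 2 iNKT1 libraries were far apart, and no Pdcd1 difference passed the threshold in the main edgeR fit. Its log2 fold change over iNKT1 was 5.99 ± 1.31 for iNKT17 (adjusted p = 0.127) and 3.56 ± 1.17 for iNKT2 (adjusted p = 0.471). When either iNKT1 library was left out, which leaves 1 library assumed to vary like the other groups, both differences were called, at 5.07 and 2.63 without library 1 and at 9.14 and 6.68 without library 2. The common biological coefficient of variation in this fit, the spread between replicates that edgeR estimated over all genes, was 1.30. DESeq2, run as an alternative, called 3 members for iNKT17 over iNKT1, 1 for iNKT2 over iNKT1 and 2 for iNKT17 over iNKT2. Over all genes it called 1820, 1177 and 1472 in the same order. For iNKT17 over iNKT1, Pdcd1 was among the members it called (DESeq2 adjusted p = 1.23e-04).

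Cd28 ran in another order. It had 185 and 165 CPM in iNKT17, 449 and 324 CPM in iNKT2, and 249 and 275 CPM in iNKT1, so that the 3 pairs did not overlap and iNKT17 was lowest. Its log2 fold change for iNKT17 over iNKT2 was −1.14 ± 0.30 (edgeR adjusted p = 0.212). DESeq2 called that difference (adjusted p = 8.28e-04). In that comparison edgeR called 0 members, against 0.711% of all genes, and 1 member, Cd28, had an unadjusted p under 0.05. Fewer cells carrying a transcript and less RNA per cell cannot be told apart in bulk libraries.

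Btla and Ctla4 were each detected in an uneven way between replicates. Btla had 0 and 95.1 CPM in iNKT17 (0 and 2453 counts), 57.0 and 75.4 CPM in iNKT2, and 2.16 and 0 CPM in iNKT1, and no difference was called (adjusted p of at least 0.640). Ctla4 was at 0 counts in 5 of the 6 libraries and had 494 counts, or 19.2 CPM, in 1 iNKT17 library. It did not pass the filter on low counts and was not tested. By counting error alone, a count of 0 allows up to 3 counts, which is 0.0898 to 0.109 CPM in those 5 libraries. That limit leaves out the spread between replicates, such as the 0 and 494 counts in iNKT17. Of the 5 members, 4 were thus tested in this table. Stromal and epithelial markers (Epcam, Col1a1, Pecam1 and Krt5) summed to 64.6 to 91.2 CPM in iNKT17, 129 to 152 CPM in iNKT2 and 5.53 to 19.2 CPM in iNKT1. Both groups with high Icos thus also had a higher sum. Krt5 was at 0 counts in every library and Epcam at 0 in iNKT2, so the iNKT2 sum came from Col1a1 and Pecam1. The part of these markers in the member values was not tested. B cell and plasma markers summed to at most 5.79 CPM.

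**Figure D1:**
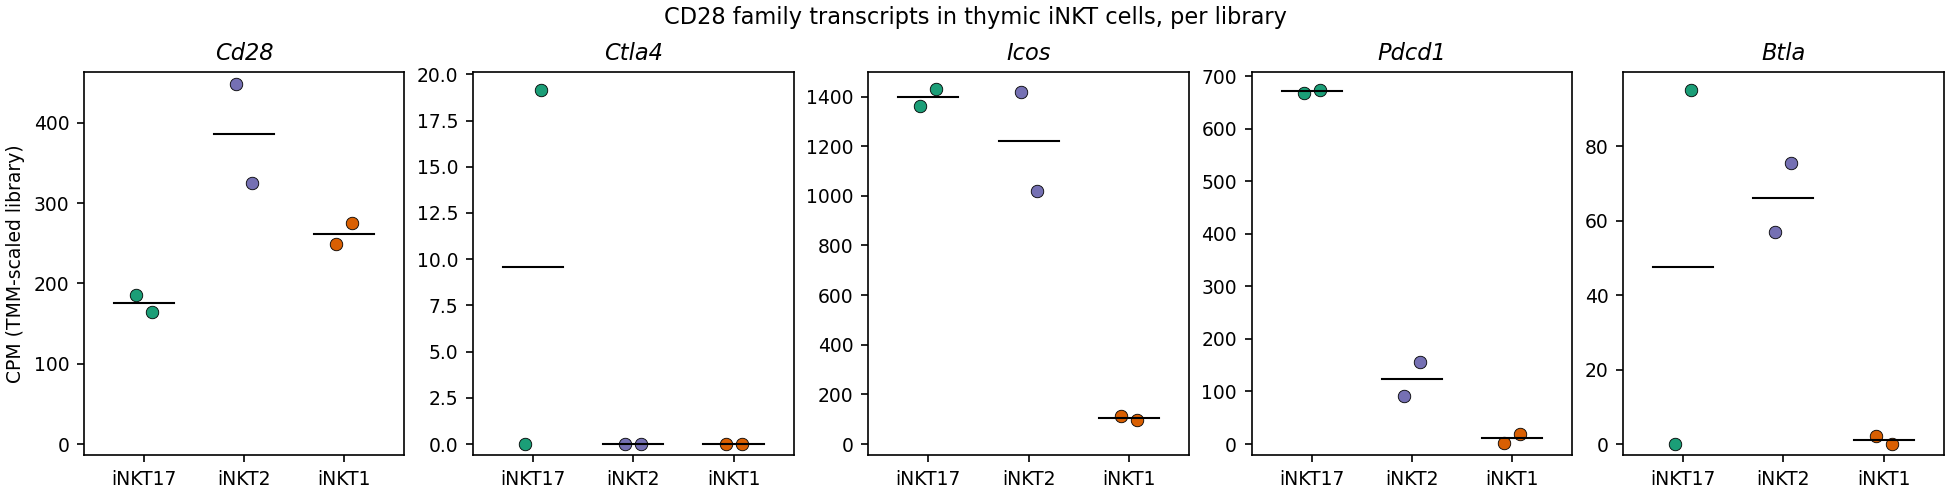
CPM of each member (linear axis, one scale per gene) in the thymic RNA libraries, 1 point per library and a bar at the group mean, with iNKT17 left of iNKT2 and iNKT1. Icos reaches 1431 in iNKT17 and 113 in iNKT1, Pdcd1 steps down through the 3 sublineages, and Ctla4 is above 0 in a single iNKT17 library.

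Unsorted thymic iNKT cells gave the same members as molecule counts (unique molecular identifiers, UMIs). The 2 libraries held 144 and 145 cells with at least 500 genes, with a median of 5175 and 5815 UMIs per cell, and none of the kept barcodes was shared. Icos had 238 UMIs in library 1 (95% exact Poisson interval 209 to 270) and 262 in library 2 (231 to 296), and Cd28 had 171 (146 to 199) and 176 (151 to 204). Pdcd1 had 71 (55.5 to 89.6) and 107 (87.7 to 129), and Btla had 2 (0.242 to 7.22) and 7 (2.81 to 14.4). Ctla4 had 0 UMIs in each library, with an upper limit of 3.69. Intervals and limits of this kind cover counting error only. Icos, Cd28 and Pdcd1 thus had UMIs in both libraries, and Ctla4 was not detectable at this depth. No doublet caller was run and free RNA was not estimated, so these sums are not read as shares of expressing cells.

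Chromatin near the members was open in all sublineages but to unequal degrees. For iNKT17 over iNKT1, 12 of the 25 regions were called, 7 higher and 5 lower, where 37.1% of the 54520 regions tested were called, 23.5% higher and 13.6% lower. For iNKT2 over iNKT1, 9 were called, 6 higher and 3 lower (38.6% of all regions, 22.3% higher and 16.3% lower), and for iNKT17 over iNKT2, 2 were called and both were lower (8.34% of all regions, 5.11% higher and 3.24% lower). The first 2 of these counts are near the shares of all regions. The third was 1 without iNKT2 library 2 and 4 without iNKT17 library 2. The median log2 fold change over the 25 regions was 0.10, −0.04 and −0.10 in the same 3 comparisons, and 0.07, 0.06 and 0.04 over all regions. Same-numbered ATAC libraries deviated together, and these fits left the library number out. Some regions not called here were called with that number as a block, as given below. Coordinates are those of the deposited table on mm10, whose headers do not say whether starts count from 0.

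The start of Pdcd1 and the stretch just upstream were more accessible in iNKT17 and iNKT2 than in iNKT1. The region chr1:94052280-94052849, which covers the start, had 12.4 and 18.3 CPM in iNKT17, 10.2 and 15.9 CPM in iNKT2, and 3.94 and 5.76 CPM in iNKT1. Its log2 fold change was 1.67 ± 0.33 for iNKT17 over iNKT1 (edgeR adjusted p = 0.00393) and 1.43 ± 0.33 for iNKT2 over iNKT1 (adjusted p = 0.00913). The upstream region chr1:94053597-94053918 had 10.5 and 17.9 CPM in iNKT17, 10.5 and 18.7 CPM in iNKT2, and 2.24 and 1.54 CPM in iNKT1. There the log2 fold changes were 2.90 ± 0.40 (adjusted p = 0.000601) for iNKT17 and 2.93 ± 0.40 (adjusted p = 0.000833) for iNKT2. In both regions the iNKT1 libraries lay below all 4 others, and iNKT17 overlapped iNKT2. Without iNKT1 library 1 the iNKT2 call at the start had an adjusted p of 0.0613. The promoter printed above lies wholly within the first of these regions.

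A region that covers the first base of the annotated Btla span and ends just before the start used for the promoter above, chr16:45223493-45224204, ran the same way. It had 8.97 and 13.2 CPM in iNKT17, 10.5 and 17.5 CPM in iNKT2, and 3.46 and 4.40 CPM in iNKT1. Its log2 fold change over iNKT1 was 1.51 ± 0.33 for iNKT17 (adjusted p = 0.00671, and 0.0503 without iNKT1 library 1) and 1.83 ± 0.34 for iNKT2 (adjusted p = 0.00319). The other Btla region, chr16:45251563-45252742 near the gene's end, was called in no comparison by the main edgeR fit. For iNKT2 over iNKT1 it was called by DESeq2 (adjusted p = 0.0119) and by edgeR without the iNKT17 libraries (adjusted p = 0.0397).

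At Cd28 the order was opposite. The region over its start, chr1:60745841-60746556, had 19.0 and 35.0 CPM in iNKT17, 42.0 and 53.2 CPM in iNKT2, and 78.6 and 101 CPM in iNKT1. The 3 pairs did not overlap, and the log2 fold change over iNKT1 was −1.73 ± 0.29 for iNKT17 (adjusted p = 0.00171) and −0.92 ± 0.29 for iNKT2 (adjusted p = 0.0319). A region inside the gene, chr1:60755465-60756210, was also lower in iNKT17 (log2 fold change −1.40 ± 0.34, adjusted p = 0.0102) and in iNKT2 (−1.27 ± 0.34, adjusted p = 0.0162) than in iNKT1. Both iNKT2 calls were lost without iNKT1 library 2 (adjusted p of 0.158 at the start and 0.0806 inside the gene) and without iNKT2 library 1 (0.146 and 0.0881). The iNKT1 sublineage thus had the most open Cd28 start while the highest mean Cd28 RNA was in iNKT2. Downstream of Cd28, chr1:60776951-60777669 was the region with the lowest p for iNKT17 over iNKT2. It was not called by the main edgeR fit (−1.08 ± 0.30, adjusted p = 0.0587). It was called by edgeR with RLE scaling in place of TMM (adjusted p = 0.0388) and without the iNKT1 libraries (0.0318), and by DESeq2 (0.00546). It lies 792 bases from another gene, 2310016D23Rik.

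Icos, the member called in RNA, had 9 regions, and those called lay in both directions. The strongest region inside the gene, chr1:60990089-60990961, had 16.6 and 21.4 CPM in iNKT17, 34.7 and 44.5 CPM in iNKT2, and 85.1 and 94.2 CPM in iNKT1, the reverse of the RNA. It fell by 2.24 ± 0.21 on the log2 scale in iNKT17 against iNKT1 (adjusted p = 1.21e-04), by 1.18 ± 0.21 in iNKT2 against iNKT1 (adjusted p = 0.00262) and by 1.06 ± 0.21 in iNKT17 against iNKT2 (adjusted p = 0.0162, and 0.0717 without iNKT2 library 2). Downstream of the gene, chr1:61001870-61002457 had 8.62 and 13.4 CPM in iNKT17, 7.88 and 15.8 CPM in iNKT2, and 1.14 and 1.85 CPM in iNKT1. That region rose by 2.90 ± 0.43 in iNKT17 (adjusted p = 0.000862) and by 3.00 ± 0.43 in iNKT2 (adjusted p = 0.00106) against iNKT1. A pair of regions in the first part of the gene were also higher over iNKT1. The region chr1:60970888-60971258 rose by 1.24 ± 0.27 in iNKT17 (edgeR adjusted p = 0.00570) and 1.36 ± 0.27 in iNKT2 (0.00439). The region chr1:60974090-60974503 rose by 1.42 ± 0.27 in iNKT17 (0.00320) and 1.71 ± 0.27 in iNKT2 (0.00169). No values with a library left out are given for this pair. The region nearest the start, chr1:60961181-60961415, was called in no comparison.

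Ctla4 had 3 regions. The one over its start, chr1:60908795-60909274, had 4.71 and 6.95 CPM in iNKT17, 4.86 and 11.8 CPM in iNKT2, and 3.60 and 3.78 CPM in iNKT1. It was not called by the main edgeR fit (adjusted p = 0.0544 for iNKT2 over iNKT1). In that comparison it was called by DESeq2 (adjusted p = 0.0414) and by edgeR without the iNKT17 libraries (adjusted p = 0.0267). Downstream, chr1:60920128-60920816 had 1.93 and 2.49 CPM in iNKT17, 11.1 and 11.6 CPM in iNKT2, and 11.8 and 18.6 CPM in iNKT1. Both iNKT17 libraries lay below the 4 others. The log2 fold change was −2.77 ± 0.31 for iNKT17 over iNKT1 (adjusted p = 0.000234) and −2.35 ± 0.31 for iNKT17 over iNKT2 (adjusted p = 0.00371). This region lies 416 bases from another annotated gene, Gm34649, and the files tie no region to the gene it acts on.

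**Figure D2:**
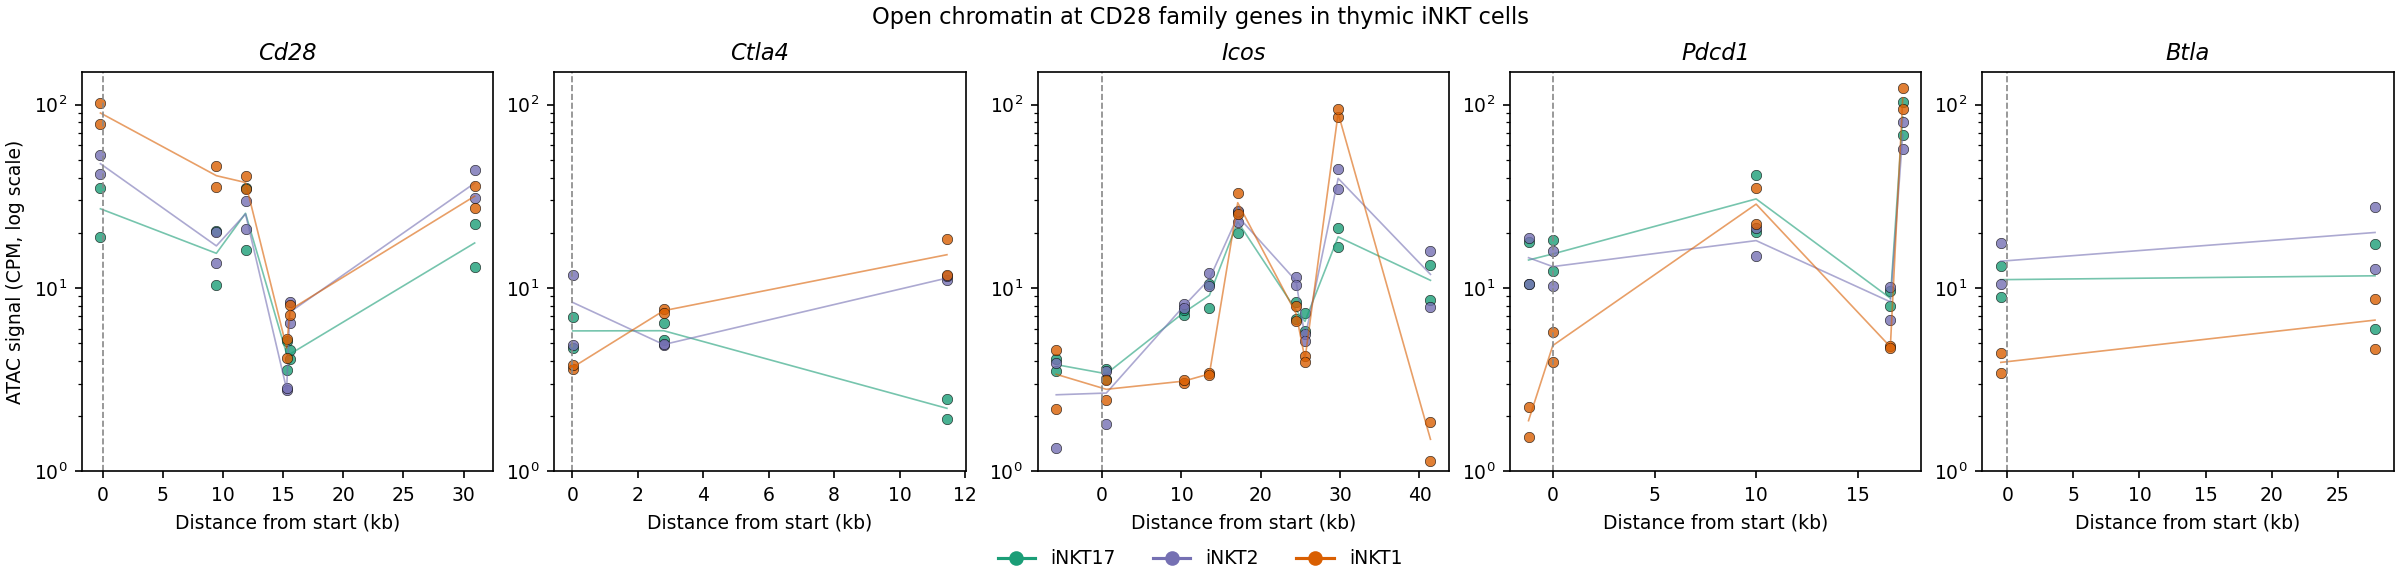
Accessibility (CPM, log axis) of the 25 regions against distance in kb from each member's start, positive in the direction of transcription. Points are libraries and thin lines join the group means of iNKT17, iNKT2 and iNKT1. Pdcd1 shows iNKT1 lowest at and just before the start, Cd28 shows iNKT1 highest at the start, and Ctla4 shows iNKT17 lowest about 11 kb downstream.

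Donor T cells on day 7 were compared with those taken before transfer. On day 7 in untreated hosts, Pdcd1, Ctla4, Icos and Cd28 were higher than on day 0 in both CD8 and CD4 cells, while Btla fell in CD8 cells and was not called in CD4 cells. All 5 members were called in CD8 cells, where 60.7% of the 14586 genes tested were called, and 4 in CD4 cells, where 35.6% of 15031 were. With backgrounds this high the counts alone set the members little apart, and the sizes carry the description.

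Pdcd1 had 930, 1096 and 895 CPM in untreated day 7 CD8 cells and 3.39, 3.06 and 4.68 CPM on day 0. The log2 fold change was 8.01 ± 0.22 (edgeR adjusted p = 8.17e-13), which is a 258-fold higher level. In CD4 cells it had 628, 612 and 398 CPM on day 7 and 21.6, 23.5 and 14.99 CPM on day 0, or 4.72 ± 0.34 on the log2 scale (adjusted p = 2.69e-07). The days did not overlap in either cell type.

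Ctla4 had 157, 132 and 142 CPM in untreated day 7 CD8 cells and 11.8, 12.0 and 11.1 CPM on day 0, a 12.2-fold rise (log2 3.61 ± 0.13, adjusted p = 1.52e-11). In CD4 cells it had 221, 238 and 197 CPM on day 7 and 32.8, 37.6 and 26.7 CPM on day 0, a 6.54-fold rise (log2 2.71 ± 0.15, adjusted p = 3.94e-08). Every day 7 library was above every day 0 library of its cell type.

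Icos, which like Ctla4 is induced by activation, had 244, 223 and 228 CPM in untreated day 7 CD8 cells and 36.1, 32.8 and 45.2 CPM on day 0 (log2 fold change 2.58 ± 0.12, adjusted p = 1.57e-10). In CD4 cells it had 637, 713 and 592 CPM on day 7 and 58.5, 60.6 and 69.3 CPM on day 0 (3.32 ± 0.16, adjusted p = 1.01e-08). Cd28, which resting T cells already carry, moved least among the 4 that rose, by 0.55 ± 0.10 in CD8 cells (adjusted p = 2.12e-04) and 0.54 ± 0.13 in CD4 cells (adjusted p = 0.00465). Its CD8 libraries had 240, 205 and 200 CPM on day 7 and 159, 140 and 135 CPM on day 0, without overlap. Its CD4 libraries had 367, 375 and 359 CPM on day 7 and 267, 265 and 202 CPM on day 0, also without overlap.

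Btla had 20.3, 16.6 and 16.4 CPM in untreated day 7 CD8 cells and 53.7, 54.6 and 72.8 CPM on day 0. It fell by 1.79 ± 0.26 on the log2 scale (adjusted p = 2.74e-05). In CD4 cells it had 109, 125 and 93.5 CPM on day 7 and 81.7, 89.2 and 104 CPM on day 0, and these groups overlapped (0.21 ± 0.25, adjusted p = 0.557).

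Markers of other cells also differed between the days. B cell and plasma markers (6 of 6 matched) summed to 8.11 to 11.2 CPM in untreated day 7 CD8 libraries and 167 to 605 CPM on day 0, and to 3.34 to 6.11 CPM in day 7 CD4 libraries and 396 to 451 CPM on day 0. Btla is also expressed by B cells. Myeloid markers summed to 177 to 219 CPM on day 7 and 444 to 1510 CPM on day 0 in CD8 libraries, and to 102 to 163 CPM and 726 to 794 CPM in CD4 libraries. Erythroid and platelet markers had at most 10.0 CPM on day 7 and at least 439 CPM on day 0 in either cell type. The part of these cells in the member values was not tested.

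**Figure D3:**
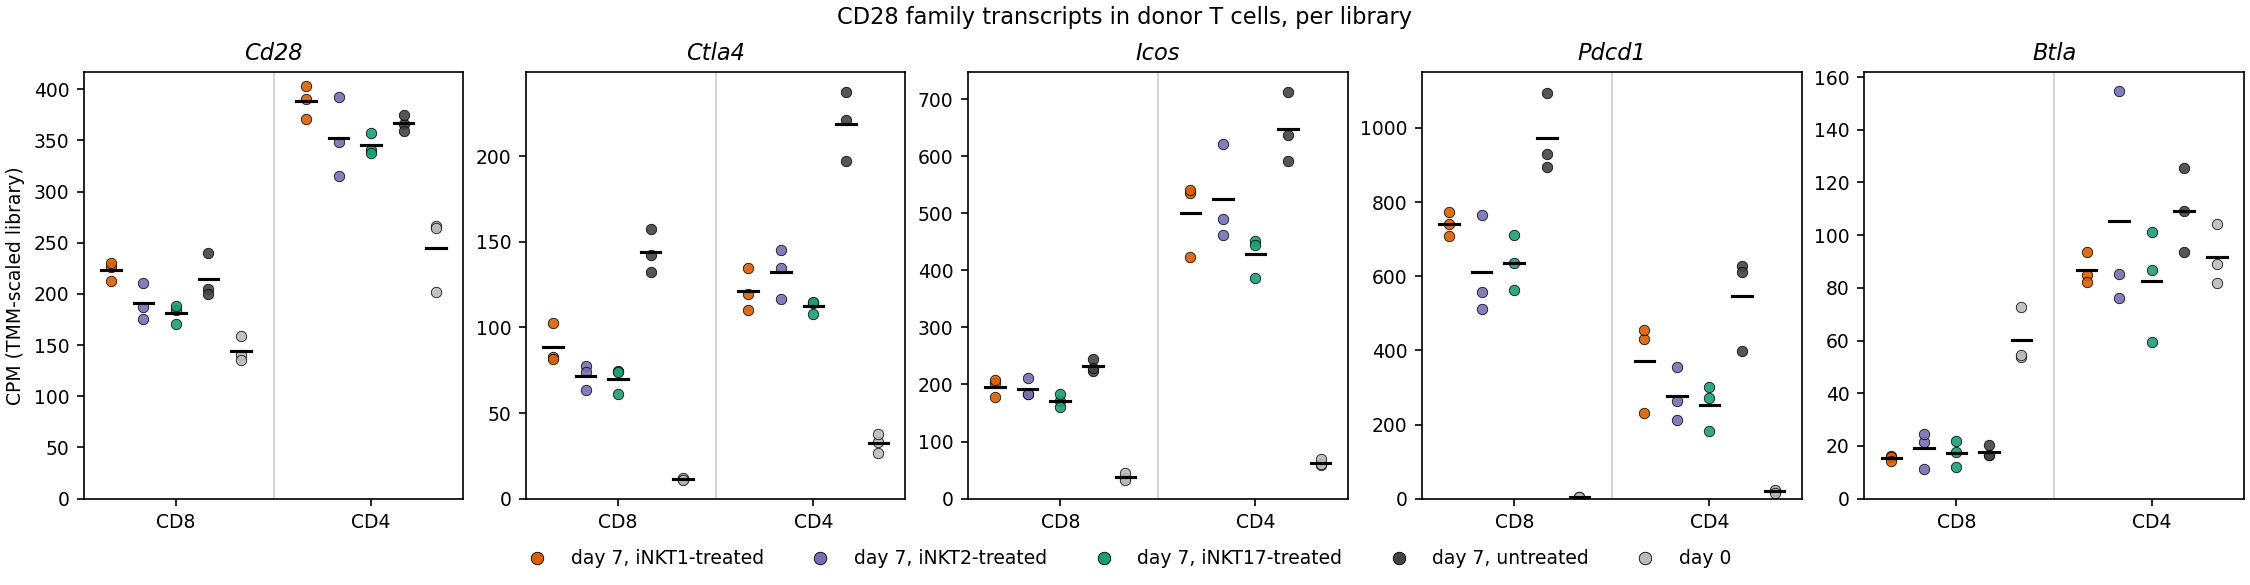
CPM of each member (linear axis from 0, one scale per gene) in the 30 donor T cell libraries, 1 point per library and a bar at the group mean, CD8 left of CD4, and within each cell type the treated day 7 groups left of untreated day 7 and day 0. Treated Ctla4 points lie between day 0 and untreated day 7 in both cell types, and among CD8 groups Btla is highest on day 0.

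The day 7 changes differed between the cell types for 4 of the 5 members, against 8.78% of 15601 genes. This fit took CD8 and CD4 libraries as independent, although their titles carry matching experiment names and numbers. Tested as an interaction, the change in CD8 minus that in CD4 was 3.27 ± 0.37 for Pdcd1 on the log2 scale (edgeR adjusted p = 2.49e-06), 0.87 ± 0.18 for Ctla4 (adjusted p = 0.00329), −0.76 ± 0.18 for Icos (adjusted p = 0.0102) and −2.02 ± 0.38 for Btla (adjusted p = 0.00105). For Cd28 the difference was −0.01 (95% interval −0.31 to 0.28, adjusted p = 0.978). Of the members that rose in both cell types, Pdcd1 and Ctla4 rose more in CD8 cells on the log2 scale and Icos rose more in CD4 cells. No difference was detected for Cd28. In CPM, mean Ctla4 went from 11.6 to 144 in CD8 cells and from 32.4 to 219 in CD4 cells.

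Levels in CD8 cells were mostly below those in CD4 cells. On day 0, CD8 over CD4 log2 fold changes were −2.43 ± 0.27 for Pdcd1 (adjusted p = 9.42e-07), −1.48 ± 0.13 for Ctla4 (adjusted p = 3.18e-08), −0.76 ± 0.11 for Cd28 (adjusted p = 2.78e-05) and −0.72 ± 0.13 for Icos (adjusted p = 5.02e-04). Those 4 were called, against 8.59% of all genes, and Btla was not (−0.60 ± 0.26, adjusted p = 0.181). On day 7 in untreated hosts all 5 were called, against 14.5% of all genes. Pdcd1 was then higher in CD8 cells (0.83 ± 0.25, adjusted p = 0.0227), and the others were lower. Their log2 fold changes were −0.60 ± 0.13 for Ctla4 (adjusted p = 0.00169), −0.77 ± 0.11 for Cd28 (adjusted p = 1.66e-05), −1.48 ± 0.13 for Icos (adjusted p = 2.73e-08) and −2.62 ± 0.28 for Btla (adjusted p = 4.06e-07). The Pdcd1 call rested on single libraries, with an adjusted p of 0.0930 without untreated CD8 library 2 and 0.148 without untreated CD4 library 3.

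**Figure D4:**
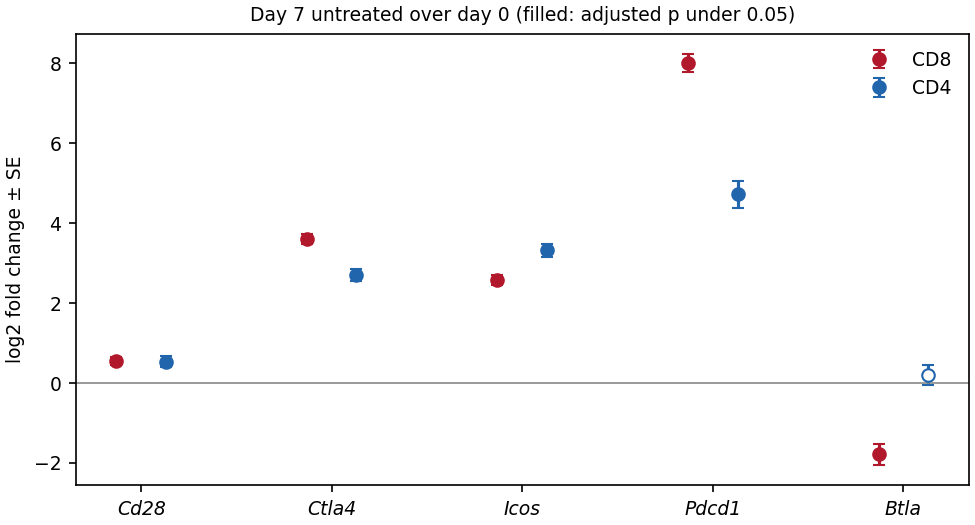
Log2 fold change of untreated day 7 over day 0 for each member, CD8 left of CD4, with bars of 1 SE and filled points where the adjusted p is under 0.05. Pdcd1 reaches 8.01 in CD8 cells and 4.72 in CD4 cells, and Btla is negative in CD8 cells alone.

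Hosts given iNKT cells were compared with untreated hosts on day 7. Ctla4 was the only member called by edgeR, and it was lower in CD8 cells after each of the 3 treatments. Treated CD8 cells had 82.7, 102 and 81.4 CPM of Ctla4 after iNKT1, 63.7, 77.2 and 74.0 CPM after iNKT2 and 74.3, 74.2 and 61.1 CPM after iNKT17, against 157, 132 and 142 CPM in untreated hosts. None of the 9 treated libraries reached the lowest untreated one. The log2 fold change was −0.69 ± 0.12 for iNKT1 (edgeR adjusted p = 0.0375), −1.001 ± 0.12 for iNKT2 (adjusted p = 0.00562) and −1.05 ± 0.12 for iNKT17 (adjusted p = 0.00318). These 3 comparisons share the untreated libraries and are not independent of each other. After iNKT1, iNKT2 and iNKT17, edgeR called 0.158%, 0.110% and 0.206% of 14586 genes. In each comparison Ctla4 was the only one of the 5 members that edgeR called. By p-value it stood first among all genes for iNKT2 and for iNKT17. The iNKT1 call did not hold when any one of its 6 libraries was left out (adjusted p of 0.0521 to 0.182), and the iNKT2 call did not hold without iNKT2-treated library 1 (adjusted p = 0.0705).

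CD4 cells gave Ctla4 values of the same order without a call by edgeR. They had 110, 135 and 120 CPM after iNKT1, 117, 135 and 145 CPM after iNKT2 and 114, 108 and 115 CPM after iNKT17, against 221, 238 and 197 CPM in untreated hosts. Here too the 9 treated libraries all lay below the 3 untreated ones. The log2 fold changes were −0.83 ± 0.15 (adjusted p = 0.228), −0.72 ± 0.15 (adjusted p = 0.283) and −0.94 ± 0.15 (adjusted p = 0.0646) after iNKT1, iNKT2 and iNKT17. In the CD4 fit edgeR called 0 of 15031 genes for each treatment, which is 0%, while 1008, 1204 and 1170 genes had an unadjusted p under 0.05 and DESeq2 called 123, 116 and 213. Of the members, 2, 2 and 3 had an unadjusted p under 0.05 and DESeq2 called 1, 1 and 3. Ctla4 was among those DESeq2 called after each treatment (DESeq2 adjusted p = 2.31e-05, 8.43e-04 and 2.38e-07). By edgeR p-value Ctla4 ranked 4, 10 and 4 among the 15031 genes. As an interaction, no member's treatment effect was called as different between CD8 and CD4 cells by edgeR or by DESeq2, with 0 at an unadjusted p under 0.05. The 15 differences, CD8 minus CD4, ranged from −0.28 to 0.50 with a lowest unadjusted p of 0.135.

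Set against the day 0 level, the mean of the 9 treated Ctla4 libraries stood at 49.3% of the way to the untreated day 7 mean in CD8 cells and at 48.2% in CD4 cells. The matching positions were 68.0% and 53.3% for Pdcd1 and 76.6% and 72.1% for Icos. For these 3 genes, every treated library lay above every day 0 library of its cell type.

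Pdcd1 had 741, 774 and 709 CPM after iNKT1, 557, 765 and 512 CPM after iNKT2 and 711, 636 and 562 CPM after iNKT17 in CD8 cells, against 930, 1096 and 895 CPM in untreated hosts. The treated libraries all lay below the untreated ones, yet edgeR called no difference (log2 fold changes −0.39, −0.67 and −0.62, adjusted p of 0.328, 0.105 and 0.101). DESeq2 called Pdcd1 in CD8 cells after iNKT2 (adjusted p = 0.00589) and after iNKT17 (adjusted p = 0.0110). In CD4 cells 7 of 9 treated libraries lay below the lowest untreated one, and the log2 fold changes were −0.54, −0.98 and −1.10 (edgeR adjusted p of 0.813, 0.385 and 0.261). There DESeq2 called Pdcd1 after iNKT17 (adjusted p = 0.0334).

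Icos had 178, 202 and 207 CPM after iNKT1, 183, 211 and 183 CPM after iNKT2 and 171, 183 and 160 CPM after iNKT17 in CD8 cells, against 244, 223 and 228 CPM in untreated hosts. These did not overlap, and the log2 fold changes of −0.24, −0.27 and −0.44 were not called by edgeR (adjusted p of 0.414, 0.339 and 0.101). DESeq2 called Icos after iNKT17 in CD8 cells (adjusted p = 0.0173) and in CD4 cells (adjusted p = 0.0249). In CD4 cells the log2 fold changes were −0.36, −0.30 and −0.58 (edgeR adjusted p of 0.698, 0.643 and 0.250), with 8 of 9 treated libraries below the lowest untreated one.

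Cd28 and Btla were the members with the smallest fitted treatment differences. Cd28 ranged from 171 to 230 CPM (median 188) in treated CD8 libraries, against 200 to 240 CPM in untreated ones, and from 315 to 403 CPM (median 357) in treated CD4 libraries, against 359 to 375 CPM. Btla ranged from 11.2 to 24.7 CPM (median 16.3) in treated CD8 libraries, against 16.4 to 20.3 CPM, and from 59.5 to 155 CPM (median 85.2) in treated CD4 libraries, against 93.5 to 125 CPM. With the treatments pooled, treated and untreated libraries overlapped in all 4 cases. By treatment, Cd28 after iNKT17 lay below every untreated library, at 171 to 188 CPM in CD8 cells and 338 to 357 CPM in CD4 cells, and so did Btla after iNKT1, at 14.1 to 16.3 CPM and 82.3 to 93.4 CPM. No difference was called, and the 6 log2 fold changes of each gene lay between −0.25 and 0.10 for Cd28 and between −0.39 and 0.11 for Btla.

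The 3 treatments were also compared with each other. In CD8 cells edgeR called 0 members and 0 of all genes, while 2 members, Ctla4 and Cd28, and 1288 genes had an unadjusted p under 0.05, and DESeq2 called 0 members and 45 genes. In CD4 cells edgeR called 0 members, 0 members had an unadjusted p under 0.05, and DESeq2 called 0. A difference between the treatments was therefore not detected for any member.

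**Figure D5:**
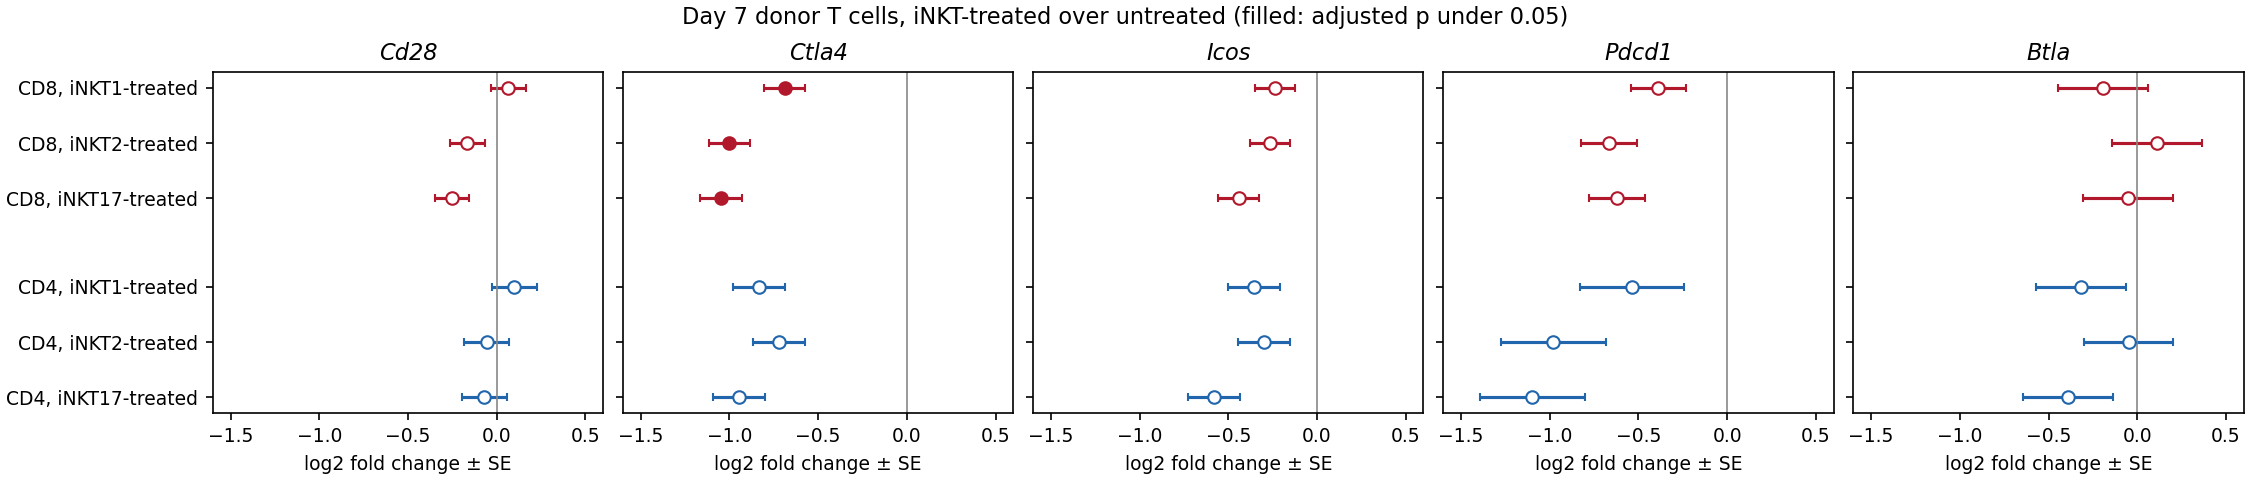
Log2 fold change over untreated hosts on day 7 for each member after iNKT1, iNKT2 and iNKT17, CD8 above CD4, with bars of 1 SE and filled points where the adjusted p is under 0.05. Ctla4 lies between −0.69 and −1.05 in all 6 positions, and Cd28 and Btla lie between −0.39 and 0.11.

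Regulatory T cells carry much Ctla4, so their markers are given beside these values. Foxp3, which defines them, had 3.02 to 6.70 CPM after iNKT1, 1.13 to 3.75 CPM after iNKT2 and 1.34 to 4.18 CPM after iNKT17 in CD8 cells, against 2.87 to 7.32 CPM in untreated hosts. In CD4 cells Foxp3 had 8.36 to 14.4 CPM after iNKT1, 9.61 to 27.3 CPM after iNKT2 and 11.1 to 17.5 CPM after iNKT17, against 9.41 to 10.98 CPM in untreated hosts. All 6 regulatory T cell markers together summed to 349 to 656 CPM in treated CD4 libraries and 308 to 425 CPM in untreated ones, and to 210 to 264 CPM in treated CD8 libraries and 219 to 249 CPM in untreated ones. The regulatory T cell sums of each treatment overlapped those of untreated hosts, and so did Foxp3, except that in CD4 cells after iNKT17 it lay above every untreated library. Follicular helper markers (6 of 6, of which Bcl6, Tox2 and Il21 are also in the pathway lists) summed to 154 to 278 CPM in treated CD4 libraries and 207 to 267 CPM in untreated ones. After iNKT17 they summed to 154 to 204 CPM in CD4 cells, below every untreated library, while the other treatments overlapped. The 4 stromal and epithelial markers summed to 133 to 158 CPM after iNKT1, 144 to 172 CPM after iNKT2 and 142 to 168 CPM after iNKT17 in CD4 cells, against 176 to 217 CPM in untreated hosts, with no overlap. Nearly all of that sum was Pecam1, and Krt5 was at 0 in the treated CD4 libraries. The 7 myeloid markers summed to 172 to 329 CPM in CD4 cells after iNKT1, above every untreated library (102 to 163 CPM), while the other treatments overlapped. In CD8 cells both sums overlapped between each treatment and untreated hosts. The part of these markers in the values of the members was not tested.

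The rest of the pathway was read from 47 genes in 5 lists, of ligands, signal transducers, membrane traffic, regulators and costimulation targets. On day 7 over day 0, 17 rose and 21 fell of 45 tested in CD8 cells, and 16 rose and 8 fell of 47 in CD4 cells. Of all genes tested, 60.7% were called in CD8 cells and 35.6% in CD4 cells. These shares are also the background for the counts of each list below, which alone set the lists little apart. Among the ligands, Cd80 rose by 4.79 ± 0.51 on the log2 scale in CD8 cells and by 2.43 ± 0.31 in CD4 cells, with means of 6.14 and 5.72 CPM on day 7 against 0.210 and 1.03 CPM on day 0, while Cd86 fell by 1.39 ± 0.17 and by 1.21 ± 0.20. Tnfrsf14, which encodes the ligand of Btla, fell by 2.199 ± 0.16 in CD8 cells and by 1.12 ± 0.20 in CD4 cells, so that in CD8 cells both partners were lower on day 7. The ligand list had a median log2 fold change of −1.01 in CD8 cells and −0.50 in CD4 cells, against −0.05 and −0.08 over all genes. The B cell and myeloid markers given above were also lower on day 7 in both cell types. The part of such cells in the ligand values was not tested.

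Of the 14 signal transducers, 4 rose and 8 fell in CD8 cells, and 4 rose and 3 fell in CD4 cells. Akt1, a kinase that acts after Cd28, rose by 1.35 ± 0.11 in CD8 cells and 1.38 ± 0.14 in CD4 cells, and Ptpn11, which encodes the phosphatase SHP2 that PD-1 recruits, rose by 1.54 ± 0.17 and 1.65 ± 0.27. Of the 6 traffic genes, 3 rose and 2 fell in CD8 cells and 0 rose and 1 fell in CD4 cells. The one that fell in both was Trat1, which encodes the adaptor TRIM and is linked to Ctla4 transport to the cell surface. It averaged 0.0554 CPM in untreated day 7 CD8 cells and 7.92 CPM on day 0, and 3.52 CPM and 36.0 CPM in CD4 cells.

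Of the 13 regulators, 4 rose and 5 fell in CD8 cells and 6 rose and 1 fell in CD4 cells. Tbx21, the transcription factor T-bet of type 1 responses, rose by 3.79 ± 0.18 in CD8 cells and 3.81 ± 0.18 in CD4 cells. Prdm1, a factor of effector differentiation, rose by 3.76 ± 0.21 in CD8 cells, where Foxo1, a factor of quiescence, fell by 1.82 ± 0.10. Maf and Tox2, both tied to follicular helper cells, rose by 2.41 ± 0.21 and 3.12 ± 0.31 in CD4 cells. Among the 8 targets of costimulation, Il2ra rose by 5.23 ± 0.20 in CD8 cells and 1.25 ± 0.23 in CD4 cells, and Il21 rose by 5.83 ± 0.37 in CD4 cells.

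The treatments left these lists almost without calls. In CD4 cells edgeR called 0 of 47 for each treatment (3, 7 and 9 at an unadjusted p under 0.05, and 0, 0 and 2 by DESeq2, after iNKT1, iNKT2 and iNKT17). In CD8 cells the single edgeR call of 45 genes was Myc, a growth regulator that costimulation induces. It rose by 0.63 ± 0.10 after iNKT2 (adjusted p = 0.0393) and by 0.56 ± 0.10 after iNKT17 (adjusted p = 0.0424). After iNKT1, iNKT2 and iNKT17, 7, 10 and 11 list genes had an unadjusted p under 0.05 and DESeq2 called 1, 4 and 4. Over all 14586 genes tested, 1799, 1872 and 1972 had an unadjusted p under 0.05 and DESeq2 called 385, 353 and 483. In thymic iNKT cells 1 of 43 pathway genes was called over the 3 comparisons, Maf, which rose by 2.65 ± 0.38 in iNKT17 over iNKT1 (adjusted p = 0.00562). At an unadjusted p under 0.05 there were 11 for iNKT17 over iNKT1, 12 for iNKT2 over iNKT1 and 7 for iNKT17 over iNKT2, and DESeq2 called 11, 10 and 6 in the same order. Over all genes, edgeR called 2.00%, 1.29% and 0.711%, and DESeq2 called 1820, 1177 and 1472 genes.

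The order of group means shows how differently the members are distributed. Ctla4 was highest in untreated day 7 CD4 cells, at 219 ± 20.4 CPM (SD, n = 3), followed by untreated day 7 CD8 cells at 144 ± 12.6 CPM, whose range overlapped that of iNKT2-treated CD4 cells at 132 ± 14.3 CPM. The other treated CD4 groups came next, then the treated CD8 groups from 88.8 ± 11.7 CPM after iNKT1 to 69.9 ± 7.56 CPM after iNKT17. The lowest were day 0 CD4 cells at 32.4 ± 5.43 CPM and day 0 CD8 cells at 11.6 ± 0.472 CPM. Pdcd1 instead had all 4 day 7 CD8 means above all 4 day 7 CD4 means, although the lowest of the first overlapped the highest of the second. For Btla all 5 CD4 means lay above all 5 CD8 means, and the 5 CD4 groups overlapped each of their neighbours in the order. For Cd28 every CD4 mean was likewise above every CD8 mean, with day 0 CD4 cells overlapping the highest CD8 group.

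Over the 10 group means, the Pearson correlation of log2 levels was 0.94 between Ctla4 and Icos, 0.87 between Ctla4 and Pdcd1, and −0.45 between Btla and Pdcd1. These are descriptions over 10 points that share libraries and depth. Among 7332 well expressed genes, the pattern most like that of Ctla4 over the 30 libraries was that of Sla (r = 0.951), then Sdcbp2 (0.950) and Il1rl1 (0.945). For Pdcd1 it was Adap1 (0.984), for Icos Casp4 (0.970), for Cd28 St3gal2 (0.945) and for Btla Cd4 itself (0.951).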

How the data were processed

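The deposited tables held whole-number counts, per the file headers and values: reads per Ensembl gene for thymic iNKT and donor T cells, reads per region for ATAC, and UMI counts per gene and cell for single cells. Per the labels' protocols, RNA libraries were made with TruSeq stranded mRNA (iNKT), SMARTer v4 with Nextera XT (donor cells) and Chromium 3′ v2. The submitters' processing notes name STAR 2.5.4, kallisto, Bowtie2, MACS2, HOMER 4.9.1, bedtools 2.27.1, Cell Ranger 2.1, Seurat 3 and DESeq2 1.22.2, with builds mm10 and GRCm38. Which tool counted which table, and whether strand was used, is not given in the sources used here. Replicates were deposited as separate columns.

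Gene IDs were paired with symbols through the single-cell gene list (99.9% of iNKT and 98.5% of donor IDs). Counts were tested with edgeR 4.0.16 in R 4.3.3: TMM scaling, filterByExpr by group, robust quasi-likelihood fits, Benjamini-Hochberg adjustment over all features tested, and a call at an adjusted p under 0.05. Single fits held 6 iNKT RNA, 6 ATAC, 15 CD8, 15 CD4, or all 30 donor libraries (CD8 against CD4 and interactions). SE is the absolute log2 fold change over the root of F. The scripts were tested on simulated data. Alternatives were DESeq2 1.42.0, other scaling and filters, a replicate block, a 50 kb window and leaving out each library. Text names the 5 members, per member the regions nearest the start and with the smallest p, a further pair of called Icos regions, and examples from the pathway lists. Members, lists and tests were chosen with earlier results of these data known. Likeness used log2(CPM + 1) of genes whose log2 CPM averaged 4 or more. No transcript lengths, proteins or exon maps were used, so regions are placed only against gene spans. Same-numbered donor libraries did not deviate together throughout (19 of 30 CD4 pairs and 10 of 18 CD8 pairs above a correlation of 0.1). Same-numbered CD8 and CD4 libraries of a treatment had correlations of −0.34 to 0.73 (9 of 12 pairs above 0.1). Those with different numbers had −0.81 to 0.64. The fits over all 30 donor libraries did not pair CD8 with CD4. Same-numbered iNKT RNA pairs had correlations of −0.03 to 0.02, so RNA samples were not treated as paired. Same-numbered ATAC libraries did deviate together (6 of 6 pairs, correlations of 0.825 to 0.921). With 2 numbers, and no label for a shared batch, the main ATAC fit left the number out. A block by number called 16 member regions rather than 9 for iNKT2 over iNKT1, and 6 rather than 2 for iNKT17 over iNKT2. The share of all regions called under that block is not given here.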

Additional observations from a re-analysis of the deposited data

Results flagged for a closer look

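The change between day 0 and untreated day 7 differed between CD8 and CD4 cells for 4 members by the interaction term of the edgeR fit over 30 libraries. That fit did not pair CD8 with CD4 libraries. The change in CD8 minus that in CD4 was 0.87 ± 0.18 (log2, SE) for Ctla4 (adjusted p = 0.00329), 3.27 ± 0.37 for Pdcd1 (adjusted p = 2.49e-06), −0.76 ± 0.18 for Icos (adjusted p = 0.0102) and −2.02 ± 0.38 for Btla (adjusted p = 0.00105). B cell and plasma markers, which also differed between the days, summed to 8.11 to 11.2 CPM on day 7 and 167 to 605 CPM on day 0 in CD8 cells, and to 3.34 to 6.11 CPM and 396 to 451 CPM in CD4 cells. Their part in these differences was not tested.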

How the results depend on the processing

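Of the 254 recomputed counts of called members or regions, 221 stayed within 1.5 times the main count. Without a filter on low counts, 3 members were called for iNKT2 over iNKT1, 3 for iNKT17 over iNKT1 and 1 for iNKT17 over iNKT2 in RNA. DESeq2 called 3 for iNKT17 over iNKT1 and 2 for iNKT17 over iNKT2 in RNA, and 4 regions for iNKT17 over iNKT2. Over all features it called 1820 and 1472 genes and 6718 regions there. In CD4 cells it called 1, 1 and 3 members after iNKT1, iNKT2 and iNKT17 (123, 116 and 213 of all genes). Ctla4 was called each time, and Icos and Pdcd1 after iNKT17. In CD8 cells it called 2 and 3 after iNKT2 and iNKT17 (353 and 483 of all genes). Pdcd1 was among them both times, and Icos after iNKT17. RLE scaling called 1 member, Ctla4, in CD4 cells after iNKT17 (edgeR adjusted p = 0.0455). A fit without the other groups called 0 members in CD8 cells after iNKT1. Within 50 kb, 23 regions were called for iNKT2 over iNKT1 and 26 for iNKT17 over iNKT1. The same fits called 38.6% and 37.1% of all regions, but the number of regions in that window is not given here. Counts over all features are also not given for the filter, RLE and reduced fits. No share therefore stands beside these counts. The cause of these changes was not tested, beyond the larger number of regions in the wider window.

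With the library number as a replicate block, RNA calls stayed at 1, 1 and 0, and ATAC calls were 16 for iNKT2 over iNKT1 and 6 for iNKT17 over iNKT2. How many of all regions were called under this block is not given here, so these counts have no background. Same-numbered ATAC libraries deviated together (correlations of 0.825 to 0.921), but with 2 numbers this is a hint from the data. Only regions nearest a start or with the smallest p per member were followed under this block, so other new calls are not named. Among the followed regions, several were called under the block and not in the main fit. The Btla region 45251563 was one in all 3 comparisons (edgeR adjusted p = 0.000271 for iNKT2 over iNKT1, 0.0167 for iNKT17 over iNKT1 and 0.0197 for iNKT17 over iNKT2). The Pdcd1 region 94042002 was one for iNKT2 over iNKT1 (edgeR adjusted p = 0.00592) and iNKT17 over iNKT2 (0.0142). The Cd28 region 60776951 was one for iNKT17 over iNKT1 (edgeR adjusted p = 0.000562) and iNKT17 over iNKT2 (0.00121). The Cd28 start was one for iNKT17 over iNKT2 (edgeR adjusted p = 0.00547), and the Ctla4 start for iNKT2 over iNKT1 (0.0197). A replicate block by column number, added after the data were seen, called 1 member in CD4 cells after iNKT2 (Pdcd1, edgeR adjusted p = 0.0178), 2 after iNKT17 (Pdcd1, 0.00631, and Ctla4, 0.0394). In CD8 cells that fit also dropped the day 0 libraries and called 0 after iNKT1 (Ctla4, edgeR adjusted p = 0.0967). The planned block by experiment was not run, because the columns do not name the experiment.

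Leaving out 1 library at a time gave 7 to 10 regions for iNKT2 over iNKT1, 9 to 12 for iNKT17 over iNKT1 and 1 to 4 for iNKT17 over iNKT2. It gave 1 to 2 members for iNKT2 and for iNKT17 over iNKT1 in RNA, 0 to 0 in CD8 cells after iNKT1, 0 to 1 after iNKT2, and 4 to 5 for CD8 over CD4 on day 7. The Ctla4 fold change in CD8 cells ranged from −0.80 to −0.62 after iNKT1, −1.07 to −0.92 after iNKT2 and −1.11 to −0.96 after iNKT17 over all alternatives.

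Signs turned only for differences that were not called, each time when 1 library was left out. In RNA the log2 fold change for iNKT17 over iNKT2 ran from −0.031 to 0.47 for Icos and −13.98 to 0.53 for Btla, and for iNKT17 over iNKT1 from −8.02 to 13.46 for Btla. In donor cells it ran from −0.15 to 0.023 for Cd28 and −0.44 to 0.14 for Btla in CD4 cells after iNKT2, from −0.13 to 0.38 after iNKT2 and −0.26 to 0.15 after iNKT17 for Btla in CD8 cells, and from −0.10 to 0.11 for the Cd28 interaction. For iNKT2 over iNKT1 it ran from −0.037 to 0.49 at the Cd28 region 60776951 and −0.61 to 0.33 at the Icos region 60961181. For iNKT17 over iNKT1 it ran from −0.49 to 0.45 at the Pdcd1 region 94042002 and −0.13 to 1.31 at the Btla region 45251563. For iNKT17 over iNKT2 it ran from −0.71 to 0.19 at the Cd28 region 60755465, −1.08 to 0.23 at the Ctla4 start, −0.090 to 0.85 at the Icos region 60961181, −0.59 to 0.44 at 61001870, −0.12 to 0.54 at the Pdcd1 start, −0.48 to 0.40 upstream of it and −0.72 to 0.041 at the Btla region 45223493. Ctla4 in thymic iNKT RNA was at 0 counts in 5 libraries and at 494 counts in 1 iNKT17 library, and the cause of this unevenness was not tested.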

Other observations

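In the donor table, the library numbered 3 in its column name was the lowest of its group for Pdcd1 in 5 of 5 CD4 groups and in 4 of the 4 CD8 groups whose columns carry numbers. For Btla this held in 4 of 5 CD4 and 4 of 4 CD8 groups, and for Ctla4 in 2 of 5 and 2 of 4. Day 7 Pdcd1 in CD4 cells was 232 CPM against 429 and 456 CPM after iNKT1, 211 against 263 and 356 CPM after iNKT2, 184 against 272 and 301 CPM after iNKT17, and 398 against 628 and 612 CPM in untreated hosts, each time with the library numbered 3 first.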
